A study of Drosophila melanogaster with 2 samples.

Results

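Muscle structure genes encode the proteins of the sarcomere, the repeating unit of striated muscle, and 30 of them were examined among the 13945 protein-coding genes of the fly annotation. They were taken by name, under a rule that uses no measured value, though with earlier results of these data known: 9 genes of the thick filament, 14 of the thin filament, 4 of the Z-disc and 3 others. Binding of CG34367, a homeodomain protein, was mapped by chromatin immunoprecipitation and sequencing in 24 hour pupae of Drosophila melanogaster, taken whole. The only group held 2 libraries, numbered as biological replicates 1 and 2 and given the same donor, from a line that stably carries the protein fused at its C-terminus to GFP. DNA was recovered with an antibody against GFP. The labels name no driver or cell type for the fusion, and they record neither the sex of the animals nor how many went into a library. No tissue was dissected, so the signal is a sum over all cells of the animal, and binding in muscle cannot be told apart from binding elsewhere.

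The sarcomere is built from interleaved filaments. Thick filaments are bundles of myosin, made of a heavy chain (Mhc) and light chains (Mlc1, Mlc2) around paramyosin (Prm). Thin filaments are actin polymers carrying tropomyosin (Tm1, Tm2) and the troponin complex, whose calcium-binding subunit is troponin C, and they are anchored in the Z-disc by alpha-actinin (Actn) and Zasp proteins. In the pupa most larval muscles break down while myoblasts build the adult flight and leg muscles, under control of the factor Mef2. The question put to the peak lists was whether CG34367 peaks lay at these genes, and at which of them.

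Counted within 500 bp of a start site, peaks lay at the muscle genes about as often as at genes in general. A gene was counted as having a promoter peak where a summit of the joint list lay within 500 bp of one of its transcription start sites (TSS). The joint list holds the 6270 peaks that passed the authors' threshold on the irreproducible discovery rate, a measure of how well peak ranks repeat. Of these, 5993 overlapped some peak of replicate 1 as well as some peak of replicate 2, among the 30000 of each library. A joint peak was therefore not always matched in each library. Promoter peaks were present at 5 of the 30 members (16.7%, 95% exact binomial interval 5.64 to 34.7%), against 17.4% of all protein-coding genes. The 5 were tmod, Act87E, sls, Msp300 and Mef2. Within 250 bp only Mef2 was left, 1 of 30, against 13.4% of all genes, and within 1000 bp there were 8 of 30, against 21.0%. Counting every summit in the gene or within 2 kb of it raised the number to 12 of 30 (40.0%, 22.7 to 59.4%), against 34.0% of all genes. Inside the gene itself, 7 of 30 had a summit, against 13.3% of all genes. A longer gene can hold more summits, and 16 of the 30 members were in the longest of 5 length classes, from 6458 bp. The count inside the gene was not compared by length class. Where a summit was counted only if no other protein-coding gene had a nearer TSS, 7 of 30 remained, against 20.2%. Over all 30 genes and their flanks there were 26 summits, or 0.357 per 10 kb, where the chromosome arms held 0.469 per 10 kb. The arms include sequence away from genes, and the density over all protein-coding genes with flanks was not taken. With 1 group of 2 libraries, no test over samples was possible. The intervals cover counting error only.

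**Figure D1:**
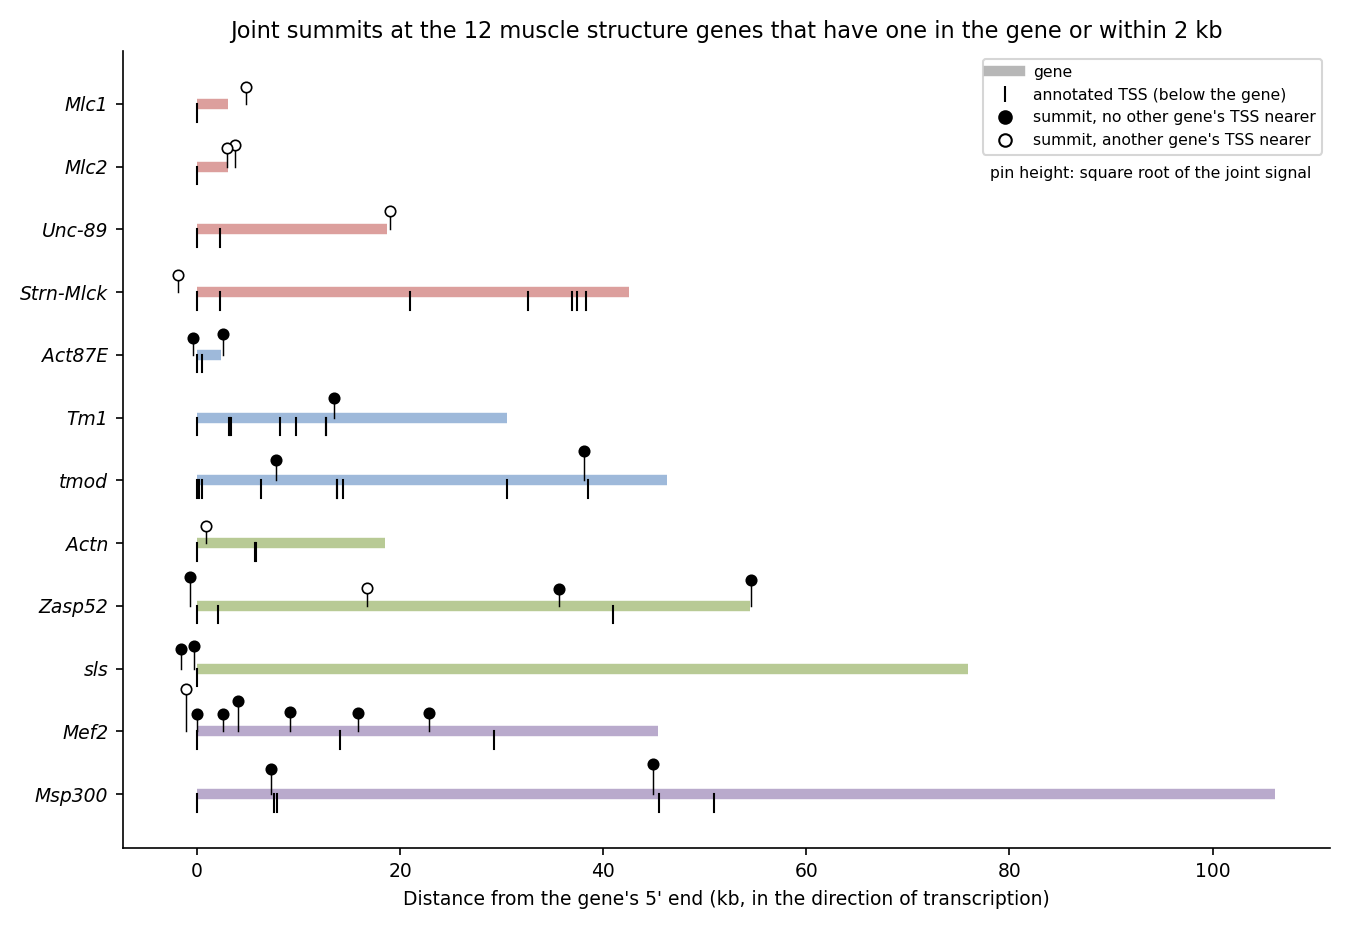
Joint summits (pins) along the 12 members that have one in the gene or within 2 kb, drawn as distance in kb from the 5' end of the gene; colours mark thick filament (red), thin filament (blue), Z-disc (green) and other members (purple), ticks below each gene mark annotated TSS, and pin height is the square root of the joint signal. All 5 summits at thick filament genes are open circles, closer to a TSS of another gene, and the tallest pin, beside Mef2, is open too.

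In the libraries taken singly, by the 6270 strongest peaks of each, promoter peaks were found at 7 members in replicate 1, against 18.3% of all genes, and at 5 in replicate 2, against 17.1%. That is 6 ± 1.41 members (SD, n = 2). Summits in or within 2 kb were found at 12 members in replicate 1, against 34.3% of all genes, and at 8 in replicate 2, against 33.6%, a mean of 10 ± 2.83 (SD, n = 2). Of the 26 member peaks, 18 overlapped one of the strongest peaks of both libraries, where 74.7% of all joint peaks did so. Another 7 did so in replicate 1 only and 1 in replicate 2 only. No share over all joint peaks was taken for 1 library only, so the split is not read as particular to members. The joint list was derived from these same libraries, so this overlap is not independent of the choice of peaks. Deposited signal at the 26 ran from 144 to 1918 with a median of 221, and the median of the joint list was 248. The signal is the authors' own value for each peak. Its scale was not stated. It serves below to describe and rank peaks within a list and to set the 2 libraries side by side. Over the joint peaks found in both full lists, the median log2 ratio of replicate 2 to replicate 1 was 0.04.

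Of the 14 thin filament genes, 3 had a summit in or within 2 kb: tmod, Act87E and Tm1. The strongest was at tmod, which encodes tropomodulin, the protein that caps the pointed end of the actin filament. It lay on 3R from 30570631 to 30570886, with a joint signal of 791 and rank 492. In the single libraries it had a signal of 408 (rank 493) in replicate 1 and 385 (rank 540) in replicate 2, so both placed it alike. Its summit lay 396 bp upstream of the TSS of the transcript tmod-RB and inside an intron of 17 of the 18 annotated transcripts. A weaker tmod peak (30540318 to 30540470, signal 246) lay 1440 bp downstream of the TSS of tmod-RH, in an intron, with 130 in replicate 1 and 111 in replicate 2.

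Act87E, one of the muscle actin genes, was the only one of the 4 actins in the set with a joint peak. Upstream, on 3R from 13425403 to 13425782, a peak of signal 153 had its summit 390 bp before the TSS of Act87E-RA and Act87E-RC. The libraries differed there, with 52.5 (rank 8279) in replicate 1 and 102 (rank 4238) in replicate 2, and replicate 1 did not hold it among its 6270 strongest. The stronger Act87E peak lay just past the 3' end of the gene (13428438 to 13428565, signal 303, summit 2084 bp from the nearest Act87E TSS), with 160 in replicate 1 and 138 in replicate 2. Tm1, a tropomyosin gene, had 1 peak (3R, 15291514 to 15291893, signal 223) in an intron of all 18 of its transcripts, 758 bp downstream of the TSS of Tm1-RQ and Tm1-RR. It stood at 87.0 in replicate 1 and 124 in replicate 2, among the strongest 6270 of both. The neighbouring tropomyosin gene Tm2 had no peak in any of the 4 lists.

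The 2 Act87E windows both hold TAATTA, the core that many homeodomains bind, and that of the stronger tmod peak does not, so these are shown. The windows of the Tm1 peak and the weaker tmod peak, not shown, hold neither TAATTA nor the MEF2 consensus. Each sequence shown is the plus strand of the 101 bases centred on the summit, in dm6 coordinates and from the RefSeq assembly of Release 6. TAATTA and the MEF2 consensus are in capitals. In the upstream Act87E window the first run of capitals is TAATTA and the second the MEF2 consensus.

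Act87E upstream, chr3R:13425543-13425643: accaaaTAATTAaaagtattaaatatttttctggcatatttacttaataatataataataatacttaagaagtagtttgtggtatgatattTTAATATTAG

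Act87E downstream, chr3R:13428481-13428581: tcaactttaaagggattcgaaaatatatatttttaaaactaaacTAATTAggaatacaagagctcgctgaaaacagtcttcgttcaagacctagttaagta

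tmod intronic, chr3R:30570711-30570811: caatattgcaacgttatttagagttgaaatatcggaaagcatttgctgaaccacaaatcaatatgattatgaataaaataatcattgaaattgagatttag

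The upstream Act87E window was the most AT-rich of the member summits, with a GC content of 16.8%. The other 11 thin filament genes had no joint peak: Act57B, Act79B, Act88F, Tm2, up (troponin T), wupA (troponin I) and all 5 troponin C genes in the set, TpnC4, TpnC25D, TpnC41C, TpnC47D and TpnC73F. Act88F is the actin of the indirect flight muscle. Its only peak was in the pooled list, at rank 23838 with a q-value of 0.536. The nearest joint summit lay 11938 bp from its TSS. Among these 11, TpnC73F came closest to the threshold, with a pooled peak of signal 108 at rank 8030 (q-value 0.00081) 1011 bp from a TSS. Its strongest peaks in the libraries lay elsewhere, 1927 bp from a TSS in replicate 1 (rank 8971) and 2240 bp in replicate 2 (rank 12749).

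At the Z-disc, sls encodes the titin-like proteins that tie the Z-disc to the ends of the thick filament. All of its 13 transcripts share 1 TSS, and 2 summits lay before it, with none inside the 75931 bp of the gene. The nearer (3L, 2115797 to 2115980, signal 376, rank 1801) was 273 bp upstream, with 226 (rank 1357) in replicate 1 and 148 (rank 2641) in replicate 2. The farther (2117113 to 2117234, signal 232) was 1591 bp upstream, with 121 in replicate 1 and 110 in replicate 2. Both stood among the strongest 6270 of both libraries. The farther window holds TAATTA, in capitals, and the nearer holds neither that core nor the MEF2 consensus.

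sls upstream, chr3L:2117152-2117252: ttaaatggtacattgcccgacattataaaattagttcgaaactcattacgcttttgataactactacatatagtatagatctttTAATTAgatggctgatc

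sls promoter, chr3L:2115834-2115934: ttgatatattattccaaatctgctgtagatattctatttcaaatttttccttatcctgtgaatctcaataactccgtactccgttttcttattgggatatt

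The other Z-disc genes with a joint peak were Zasp52 and Actn, and Zasp66 had no peak in any of the 4 lists. Zasp52, which encodes a PDZ and LIM domain protein of the Z-disc, had 4 summits over its 54440 bp on 2R. The strongest (15817560 to 15817869, signal 719, rank 594) lay 685 bp upstream of the first TSS, within the neighbouring gene tun, with 362 (rank 603) in replicate 1 and 357 (rank 643) in replicate 2. A second (15762340 to 15762569, signal 550) lay just past the 3' end, with 357 in replicate 1 and 191 in replicate 2. The 2 intronic Zasp52 peaks were weak, with joint signals of 144 and 166. The weaker of them stood at 110 in replicate 1 and only 35.1 (rank 13521) in replicate 2.

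Actn encodes alpha-actinin, which cross-links thin filaments at the Z-disc. Its peak (X, 2041181 to 2041560, signal 159) lay in the first intron of 4 of its 9 transcripts, 940 bp from an Actn TSS, and outside the others. That place is also the promoter of usp, which encodes the partner of the ecdysone receptor, with the summit 59 bp from a usp TSS. It had a signal of 104 (rank 3764) in replicate 1 and 66.3 (rank 6932) in replicate 2. Which of these overlapping genes a summit belongs to cannot be read from its position.

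Of the 9 thick filament genes, none had a promoter peak, and 4 had a summit in the gene or within 2 kb. All 5 of these summits lay closer to the TSS of a neighbour. Over all 13945 protein-coding genes, 4741 had a summit in or within 2 kb and 2814 had one with no other gene's TSS nearer. A summit nearer to a neighbour was thus not particular to thick filament genes. Mlc2, the gene of the regulatory myosin light chain, had the strongest pair, on 3R. One (30170737 to 30170925, signal 343) stood at 185 in replicate 1 and 156 in replicate 2, and its summit was 363 bp from the TSS of Rsod. The other (30171393 to 30171772, signal 184) lay in the 3' UTR of Mlc2, 376 bp from that TSS and 2968 bp from that of Mlc2, with 81.5 in replicate 1 and 115 in replicate 2. Mlc1, the alkali light chain gene, had a peak of signal 144 past its 3' end, inside tau, with 76.5 in replicate 1 and no overlapping peak in replicate 2.

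Unc-89, listed in the annotation as Obsc, encodes obscurin, a giant protein of the M-line in the centre of the thick filament. Its peak (2R, 23995072 to 23995451, signal 202) lay just past the 3' end, 207 bp from the TSS of CG3860 and 16760 bp from the nearest TSS of its own. It stood at 75.2 (rank 5544) in replicate 1, and replicate 2 held no overlapping peak. Replicate 1 had a stronger one inside Unc-89 (98.4, rank 4049) that the joint list did not hold. Strn-Mlck, a titin-like kinase gene, had a peak of signal 164 that lay 1892 bp upstream, 104 bp from the TSS of CG8314. The libraries parted there, with 120 (rank 3192) in replicate 1 and 25.1 (rank 18851) in replicate 2. In the strongest 6270 peaks of replicate 1, 4 thick filament genes had a summit in or within 2 kb, and in those of replicate 2 only Mlc2 did.

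The remaining thick filament genes were without joint peaks: Mhc, Prm, fln (flightin, a myosin-binding protein of flight muscle), Mf (myofilin) and bt (projectin). At Mhc, replicate 1 held 2 peaks in the full list of 30000, the stronger at rank 24011 with a q-value of 0.712, and replicate 2 held none. The nearest joint summit lay 45716 bp from a TSS of Mhc. Prm and Mf likewise had a peak in replicate 1 only, at rank 22506 and rank 25872. At fln the order was turned, with no peak in replicate 1 and one at rank 12297 (q-value 0.00142) in replicate 2. bt lies on chromosome 4, which held 15 joint peaks in all. Its peaks, at rank 12877 in replicate 1 and rank 26273 in replicate 2, lay 30604 and 50030 bp from a TSS.

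**Figure D2:**
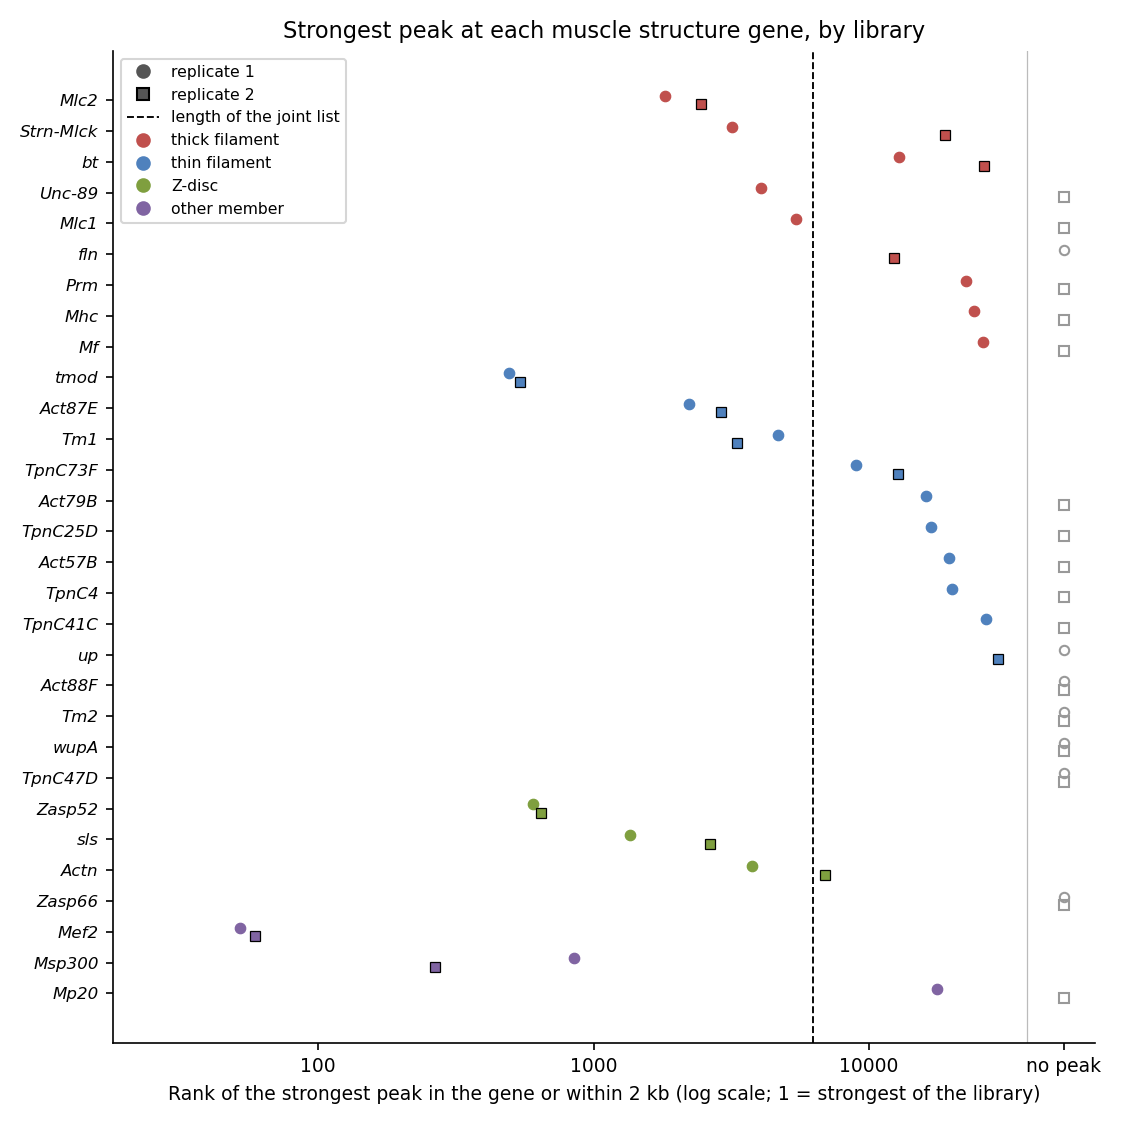
Rank of the strongest peak in the gene or within 2 kb for each of the 30 members (log axis, 1 is the strongest peak of the library), with replicate 1 as circles and replicate 2 as outlined squares; open grey symbols mark no peak among the 30000 of that library, and the dashed line is the length of the joint list, 6270. Mhc, Prm, Mf, bt and the 5 troponin C genes have no symbol left of the line in either library.

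Over the 18 members with no joint summit in or within 2 kb, the full lists held a peak for 11 in replicate 1, 4 in replicate 2 and 5 in the pool. The best ranks were 8971 in replicate 1, 12297 in replicate 2 and 8030 in the pool. A q-value of at most 0.05 was reached by 1 of them in replicate 1, 2 in replicate 2 and 1 in the pool. For 4 members (Tm2, wupA, TpnC47D and Zasp66) no list held any peak. No matching share over all genes without a joint summit is given, so these counts do not show whether such peaks were scarce. The remaining member of the 18 is Mp20, which encodes a calponin-like muscle protein and had a peak at rank 17738 in replicate 1 and none in replicate 2. The distance from a TSS to the nearest joint summit ran from 7813 bp at Tm2 to 144641 bp at TpnC4, with a median of 18716 bp over the 18, which were set apart for having no summit near. Over all 30 members the median was 13337.5 bp, against 6926 bp over all protein-coding genes. It was over 10 kb for 18 of the 30 members (60.0%), against 40.5% of all genes, a difference that was not tested.

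Set side by side, promoter peaks were present at 0 of 9 thick filament genes (95% exact interval 0 to 33.6%), 2 of 14 thin filament genes (14.3%, 1.78 to 42.8%) and 1 of 4 Z-disc genes (25.0%, 0.631 to 80.6%). Summits in or within 2 kb were present at 4 of 9 (44.4%, 13.7 to 78.8%), 3 of 14 (21.4%, 4.66 to 50.8%) and 3 of 4 (75.0%, 19.4 to 99.4%). All these intervals overlap, but they treat genes picked by name as independent draws, so the overlap settles nothing. The differences were not tested. By summits with no other gene's TSS nearer, the counts were 0 of 9, 3 of 14 and 2 of 4, against 20.2% of all genes. Per 10 kb of gene and flank, thick filament genes held 0.247 summits, thin filament genes 0.277 and Z-disc genes 0.39. By the strongest peaks of replicate 1 these were 0.296, 0.388 and 0.613, and by those of replicate 2 they were 0.0986, 0.277 and 0.279, so that Z-disc and thin filament genes stood level in replicate 2. Members of the set differ in length: the median gene was 12453 bp in the thick filament, 3420.5 bp in the thin filament and 36465 bp at the Z-disc. Promoter peaks at Z-disc genes numbered 3 in replicate 1 and 1 in replicate 2.

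**Figure D3:**
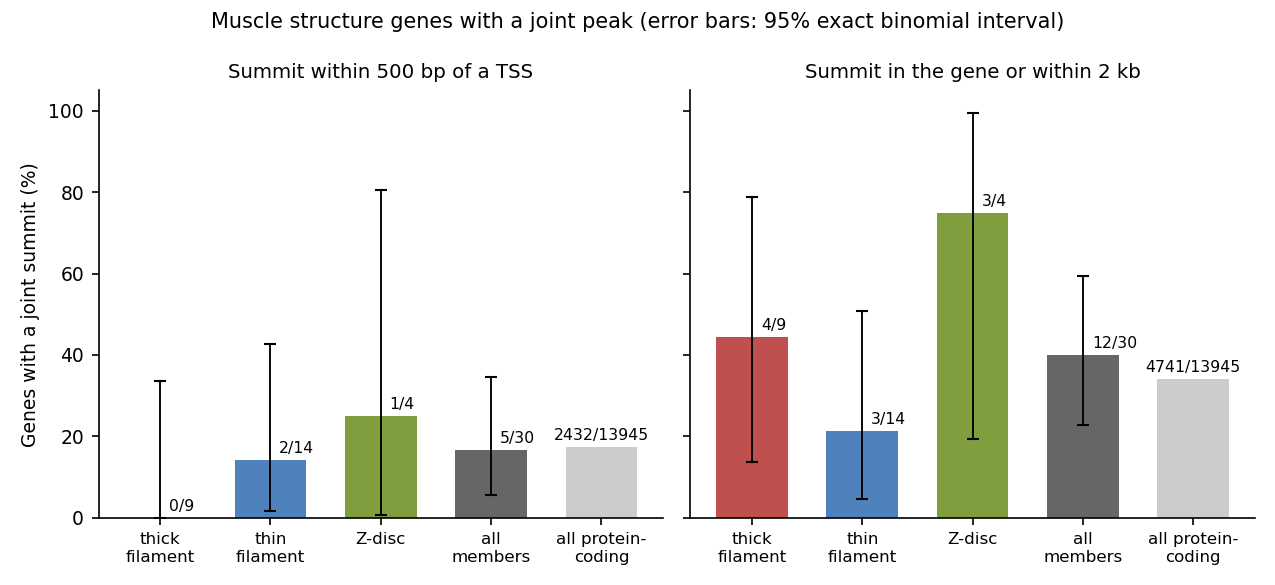
Percentage of thick filament, thin filament, Z-disc and all 30 member genes with a joint summit within 500 bp of a TSS (left) or in the gene or within 2 kb (right), beside all 13945 protein-coding genes in light grey. Labels give counts, and the error bars on the member groups are 95% exact binomial intervals. They treat the genes as independent draws and do not compare the 3 gene groups.

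Gene length moved with these counts. The protein-coding genes were cut into 5 classes of nearly equal size by length. In the longest class, 6458 bp and more, 9 of 16 members had a summit in or within 2 kb, against 57.2% of all genes of that class. From 2839 to 6455 bp it was 2 of 5, against 38.0%, and from 1718 to 2838 bp it was 1 of 7, against 30.5%. Neither of the 2 members from 1024 to 1717 bp had one, against 26.8%. For promoter peaks the longest class held 4 of 16 members, against 28.3%. Within each class the members thus stood near or below all genes of that length, with few members in every class but the longest.

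**Figure D4:**
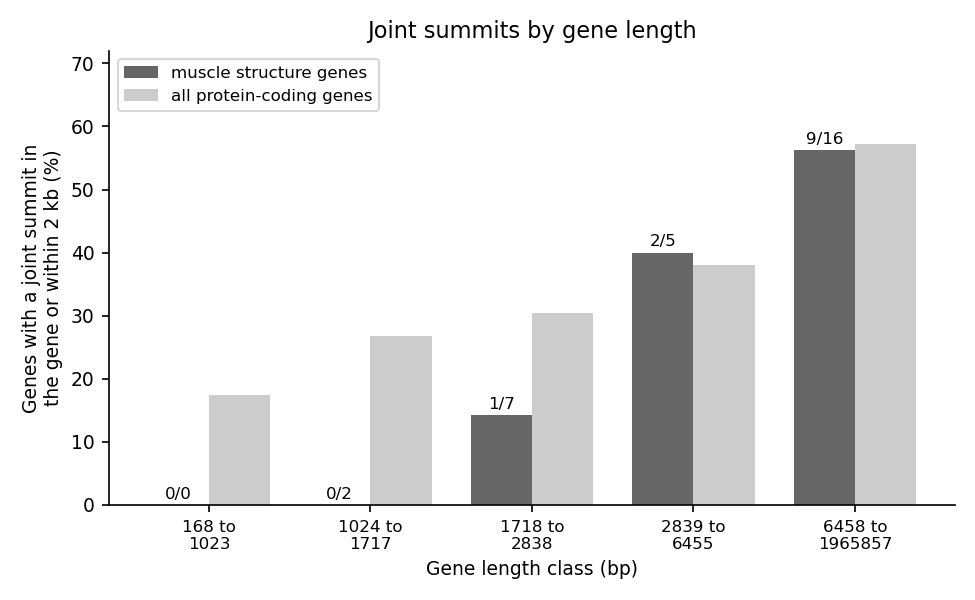
Percentage of genes with a joint summit in the gene or within 2 kb, by gene length class in bp, for the muscle structure genes (dark) and all protein-coding genes (light). Counts above the dark bars give members with a summit over members in the class; no member falls in the shortest class, and 9 of 16 have a summit in the longest.

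Outside the filaments, the longest member held strong peaks. Msp300 encodes a nesprin, which anchors muscle nuclei to the cytoskeleton. One of its peaks (2L, 5145570 to 5145934, signal 838, rank 441) lay in an intron, 628 bp upstream of the TSS of Msp300-RF, with 301 (rank 849) in replicate 1 and 524 (rank 265) in replicate 2. The other (5108063 to 5108282, signal 509) lay 344 bp upstream of the TSS of Msp300-RD and Msp300-RL, with 269 (rank 1016) in replicate 1 and 241 (rank 1336) in replicate 2. Both were among the strongest 6270 of both libraries. The window of the promoter peak is shown because it holds the MEF2 consensus, in capitals, at its end.

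Msp300 promoter, chr2L:5108118-5108218: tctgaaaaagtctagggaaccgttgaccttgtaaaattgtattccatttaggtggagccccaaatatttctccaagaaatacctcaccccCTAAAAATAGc

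The MEF2 consensus lay within 50 bp of 2 of the 26 member summits, the upstream Act87E and the Msp300 promoter summit, and of 7.18% of all joint summits. TAATTA lay within 50 bp of 3 of the 26, against 9.33% of all joint summits. Both patterns read the same on either strand, so 1 search covers both. A match is a run of letters and not a measured binding site. The median GC content of the 101 bases was 30.7% over member summits and 31.7% over all joint summits, and it ran from 16.8 to 58.4% among members.

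Mef2 itself, the MADS-box factor that switches on many genes of the sarcomere, held more summits than any other member: 7 in or within 2 kb of its 45363 bp on 2R. The strongest of all member peaks stood beside it (9959724 to 9960095, signal 1918, rank 46), with 1047 (rank 52) in replicate 1 and 877 (rank 59) in replicate 2. That summit lay 1067 bp upstream of the first Mef2 TSS, within the neighbouring gene Pal1 and 153 bp from a Pal1 TSS. It was also within 500 bp of a TSS of Pdrg1. Inside Mef2, the strongest peak (9954679 to 9954935, signal 818, rank 455) lay in the first intron of the long transcripts Mef2-RF and Mef2-RH, 4042 bp downstream of their TSS. It stood at 428 (rank 453) in replicate 1 and 369 (rank 598) in replicate 2.

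The only promoter summit of Mef2 was weak. It lay 58 bp downstream of the TSS of Mef2-RF and Mef2-RH, in their 5' UTR, with a joint signal of 152, 94.6 in replicate 1 and 81.5 in replicate 2. The other 4 Mef2 summits had joint signals from 167 to 219. The libraries placed 2 of these far apart: the peak from 9935949 to 9936070 stood at 131 (rank 2847) in replicate 1 and 31.6 (rank 14989) in replicate 2. The one from 9942785 to 9943164 stood at 148 (rank 2465) in replicate 1 and 47.5 (rank 9917) in replicate 2.

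Most of the 5 promoter summits at members lay beyond 250 bp of the TSS. Those of sls, Msp300, Act87E and tmod were 273, 344, 390 and 396 bp upstream of a TSS, and only that of Mef2 lay closer. Over all genes the median distance of a promoter summit, upstream or downstream, was 164 bp, and 28.3% lay beyond 250 bp. With 5 summits at members, the difference was not tested.

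The ratio of replicate 2 to replicate 1 was taken for the 24 member peaks found in both full lists, on the log2 scale and centred on its median over the 5993 joint peaks found in both. Its median over members was -0.26 and it ran from -2.30 at Strn-Mlck to 0.92 at the upstream Act87E peak. It was below 0 at 19 of the 24 and above 0 at 5, with an SD of 0.83 over members and 0.75 over all these joint peaks. A change of more than 2-fold from the median was seen at 4 member peaks, at Strn-Mlck, Zasp52 and 2 of the Mef2 peaks, each lower in replicate 2, and at 16.1% of all. Where both libraries held an overlapping peak, the summits in the libraries lay a median of 10 bp from the joint one and at most 62 bp. The library peak with the nearest summit was taken, and the joint list came from these libraries, so small distances were partly set in advance.

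Below the joint threshold more members carried peaks. In the whole pooled list, 10 members had a promoter peak, against 41.4% of all genes, and 17 had a summit in or within 2 kb, against 63.6%.

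Other muscle genes, in 4 lists of 77 genes that share no gene with the 30, were counted in the same way. Of 22 further cytoskeletal and sarcomere genes, 5 had a promoter peak (22.7%, against 17.4% of all genes). The strongest were at Fhos (signal 1280), which encodes a formin that assembles thin filaments, Argk1 (1111), the arginine kinase gene, and sqh (419), the light chain gene of non-muscle myosin. Of 20 muscle regulators, 4 had one (20.0%), strongest at tin (878), the heart homeobox gene, mbl (546), which encodes the splicing factor Muscleblind, and stumps (258), which encodes an adaptor of FGF receptors. Of 22 attachment and fusion genes, 6 had one (27.3%), strongest at Vinc (480), which encodes vinculin, blow (443) and mbc (327), both needed for myoblast fusion. Of 13 calcium and membrane genes, 3 had one (23.1%), at Dg (283), Dys (172) and Cam (157), which encode dystroglycan, dystrophin and calmodulin. The peaks at mbc, Dg and Dys were also within 500 bp of a TSS of another gene. Summits in or within 2 kb lay at 10 of 22, 11 of 20, 16 of 22 and 5 of 13 genes of these lists in the same order, against 34.0% of all genes. The attachment and fusion genes had the longest median length, 21083 bp, and the further sarcomere genes the shortest, 6491.5 bp. All 4 medians fall in the longest class, from 6458 bp, where 57.2% of all genes had such a summit and 28.3% a promoter peak. The lists were not compared by length class. By the strongest peaks of replicate 1, promoter peaks lay at 9, 4, 7 and 2 genes of the lists in the same order. For replicate 2 it was 4, 5, 8 and 3.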

How the data were processed

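ChIP-seq of CG34367 with a GFP tag was deposited for 2 libraries of whole pupae as narrowPeak lists on assembly dm6: replicate 1, replicate 2 and the pool (30000 peaks each) and a joint list. Per the labels and the text descriptions beside the files, chromatin was sonicated to 200 to 800 bp and the authors derived the library and pooled lists from the alignments and a further file, also used for their control-normalized signal and not analysed here. The joint list was derived from those lists. The caller and its version were not stated. The signal value deposited by the authors is a score per peak with no stated scaling. The deposited −log10 q-value is capped and was converted to q-values. Read depth is unknown, so a peak's precision is unknown. List length is not depth.

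Summits (1-based) were set against TSS of the Ensembl annotation, release 115, with 1 member matched through an older symbol. Sequence came from the RefSeq assembly of Release 6, which has dm6 coordinates. A library's value at a joint peak is that of the overlapping peak (at least 1 bp) with the nearest summit. Its strongest peaks are its 6270 highest by signal. The members and lists were chosen with earlier results of these data known, so counts are read against all protein-coding genes and no test was made. All members are described, and of each further list the 3 genes with the highest promoter signal. Alternatives were window, flank, threshold, library, gene models, nearest TSS and overlap rule. Counting was tested on simulated data. Python 3.11.15, numpy 2.4.6, pandas 2.3.3, scipy 1.17.1 and matplotlib 3.10.9 were used.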

Additional observations from a re-analysis of the deposited data

How the results depend on the processing

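Of 30 alternative values of the main counts, 20 lay within 1.5 times the value reported. The promoter count rested on the window: it was 1 member with 250 bp, against 13.4% of all genes, and 8 with 1000 bp, against 21.0%. The stronger 3135 joint peaks gave 3 members with a promoter peak, against 9.80% of all genes, 7 with a summit in or within 2 kb, against 21.4%, and 10 summits. The whole pooled list gave 10 members with a promoter peak and 118 summits. Inside the gene only, 7 members held 15 summits, and 7 members had a summit with no other gene's TSS nearer. Each of these settings changes the peaks or bases counted, and why the member counts moved was not tested. Leaving out 1 library gave 5 and 7 members with a promoter peak, 8 and 12 with a summit in or within 2 kb, and 20 and 33 summits. The thick filament count in or within 2 kb was 1 without replicate 1 and 4 without replicate 2. RefSeq gene models changed none of the 3 member counts. Of the 26 peaks, 17 were shared under a stricter overlap rule and 18 with summits within 100 bp. With the overlap rule kept and the whole list of each library used, 24 were shared. An alternative added after the data were seen, peaks among the strongest of both libraries only, gave 4 members with a promoter peak, against 12.7% of all genes, 8 with a summit in or within 2 kb, against 26.7%, and 18 summits. With bt, Unc-89 and Strn-Mlck moved to the Z-disc, 2 of 6 thick filament and 5 of 7 Z-disc genes had a summit in or within 2 kb. Within 100 bp of the summit, TAATTA lay at 5 member summits, against 16.7% of all joint summits, and the MEF2 consensus at 4, against 12.4%. No paired analysis was possible because there is 1 group.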
